A study of Arabidopsis thaliana with 8 samples.

Results

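The transcription factors described here are 8 of the 33602 gene models counted: SHORT-ROOT (SHR, AT4G37650), SCARECROW (SCR, AT3G54220), SCARECROW-LIKE 23 (SCL23, AT5G41920), JACKDAW (JKD, AT5G03150), MAGPIE (MGP, AT1G03840), NUTCRACKER (NUC, AT5G44160), IDD4 (AT2G02080) and IDD5 (AT2G02070). The genes were listed by name as the SHR, SCR and INDETERMINATE DOMAIN (IDD) factors of the ground tissue, and the group was selected on a measured value, the higher level of IDD4 in mesophyll in these libraries. IDD4 is therefore described with its values and no test.

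SHR, SCR and SCL23 are GRAS-family transcriptional regulators. In the Arabidopsis root, SHR is transcribed in the stele, the SHR protein moves into the adjacent cell layer, and there it acts with SCR to activate transcription and to divide the ground tissue into endodermis and cortex. JKD, MGP, NUC and the other IDD proteins carry C2H2 zinc fingers that bind DNA, and several of them bind SHR or SCR. In the leaf, SHR, SCR and SCL23 are known from the bundle sheath, the layer of ground tissue around the veins.

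The libraries came from wild-type Arabidopsis thaliana (accession Col-0) embryos, taken from siliques 8 days after fertilization. Epidermis and mesophyll of the cotyledons were cut out separately by laser microdissection from sections of developing seeds, and polyadenylated RNA was amplified to cDNA from a very small input and sequenced as read pairs. There were 4 epidermis and 4 mesophyll libraries, and each pooled sections from the siliques of 1 plant. The labels do not tie a replicate number to a plant or to a harvest date, so p-values measure the spread between these libraries.

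Each library held between 27676412 and 36685627 counted pairs, and between 17796 and 19103 gene models had at least 1 pair. Summed levels of 8 epidermis markers were 3536 to 6328 counts per 1e+06 counted pairs (CPM) in epidermis and 278.0 to 739.9 CPM in mesophyll (exact two-sided permutation test, p = 0.0286, the smallest that 70 arrangements allow). Summed levels of 8 photosynthesis markers were 9400 to 13880 CPM in epidermis and 16190 to 18190 CPM in mesophyll (same exact test, p = 0.0286). Of the epidermis markers 7 were called higher in epidermis and 0 lower. Of 7 tested photosynthesis markers 3 were called lower in epidermis (LHCB1.2, annotated CAB3, RBCS1B and RBCS3B), so both tissue labels matched their markers. The study describes its epidermis data as enriched for epidermis rather than specific to it, with endosperm a probable contaminant. With a replicate left out, LHCB1.2 lost its call each time (adjusted p = 0.0572 to 0.117), and RBCS1B and RBCS3B lost theirs without replicate 1, 2 or 3 (0.0668 to 0.154). Of 15794 genes tested, 171 (1.08%) had an adjusted p of 0.05 or less in edgeR's quasi-likelihood test with Benjamini-Hochberg adjustment, 155 (0.981%) higher and 16 (0.101%) lower in epidermis.

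All 8 genes lie on the nuclear chromosomes, and 0 windows of the read length of 100 bases were shared exactly between any of them and another gene. SHR has 1 exon, on chromosome 4 (17691687 to 17693859, plus strand), SCR has 2 exons on chromosome 3 (20069987 to 20072878, plus strand), and SCL23 has 1 exon on chromosome 5 (16779643 to 16781424, plus strand). Coordinates are those of TAIR10.1. IDD4 (518079 to 521737, minus strand, 4 exons) and IDD5 (505375 to 510781, plus strand, 3 exons) are neighbours on chromosome 2, with 7297 bases and 0 annotated genes between them. JKD (chromosome 5, 745421 to 749028, plus strand, 4 exons), NUC (chromosome 5, 17772856 to 17775749, plus strand, 3 exons) and MGP (chromosome 1, 967470 to 970334, minus strand, 3 exons) lie apart.

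Of the zinc fingers of the IDD members only the first was compared, and in it IDD4 and IDD5 match closely and the others depart further. The coding sequence from the first cysteine to the last histidine of that finger is given 5′ to 3′ on the coding strand, from the RefSeq TAIR10.1 genome, and capitals mark bases that differ from IDD4:
IDD4, chr2:520536-520598, minus strand: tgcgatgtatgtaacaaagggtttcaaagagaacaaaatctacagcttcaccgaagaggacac
IDD5, chr2:506030-506092, plus strand: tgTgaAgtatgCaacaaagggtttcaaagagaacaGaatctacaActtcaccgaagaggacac
JKD, chr5:746472-746534, plus strand: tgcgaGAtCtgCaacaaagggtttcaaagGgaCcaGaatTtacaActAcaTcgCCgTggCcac
MGP, chr1:969587-969649, minus strand: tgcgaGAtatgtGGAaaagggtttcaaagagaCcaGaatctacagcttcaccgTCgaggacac
NUC, chr5:17773720-17773782, plus strand: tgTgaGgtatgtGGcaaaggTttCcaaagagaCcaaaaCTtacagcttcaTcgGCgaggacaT
Over these 63 bases IDD5 differed from IDD4 at 5 bases and 1 of 21 residues. MGP differed from IDD4 at 9 bases and 4 residues, NUC at 13 bases and 3 residues, and JKD at 15 bases and 3 residues. The longest exact run that the IDD4 and IDD5 transcripts shared was 47 bases, shorter than a read, and that of MGP and NUC was 24 bases.

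Of the 8 genes, 6 reached 1 CPM in 4 or more libraries and were tested. Levels of single genes are given in CPM of the tested genes, scaled between libraries by TMM factors. Sums over gene lists, the filter and the level allowed by a count of 0 are in unscaled CPM, so gene values do not add up to the sums. IDD4 was the only one called (1 of 6), against 0.101% of all tested genes called lower in epidermis, and because IDD4 chose the group nothing is read from that count. All 4 epidermis libraries lay below all 4 mesophyll libraries for 3 of the 6 (IDD4, IDD5 and SCL23), or 2 of 5 without IDD4, and for 712 of all tested genes (4.51%). The median log2 fold change of epidermis over mesophyll was -1.41 over the 6 members, -1.39 over the 5 other than IDD4 and -0.04 over all 15794 genes. The median of the 5 is the value of JKD alone (SE 2.22), whose sign turned in 6 of 18 alternative fits, so no shift of the group is read from it. Other fits called more genes: of all genes tested, those called lower in epidermis made up 0.538% with no replicate block, 1.67% by the likelihood ratio test, 3.38% by DESeq2 and 1.04% by limma-voom, and those called higher 1.75%, 3.53%, 4.98% and 2.11% in the same order of fits. In dissected tissue, fewer cells of a type and less RNA per cell cannot be told apart.

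**Figure D1:**
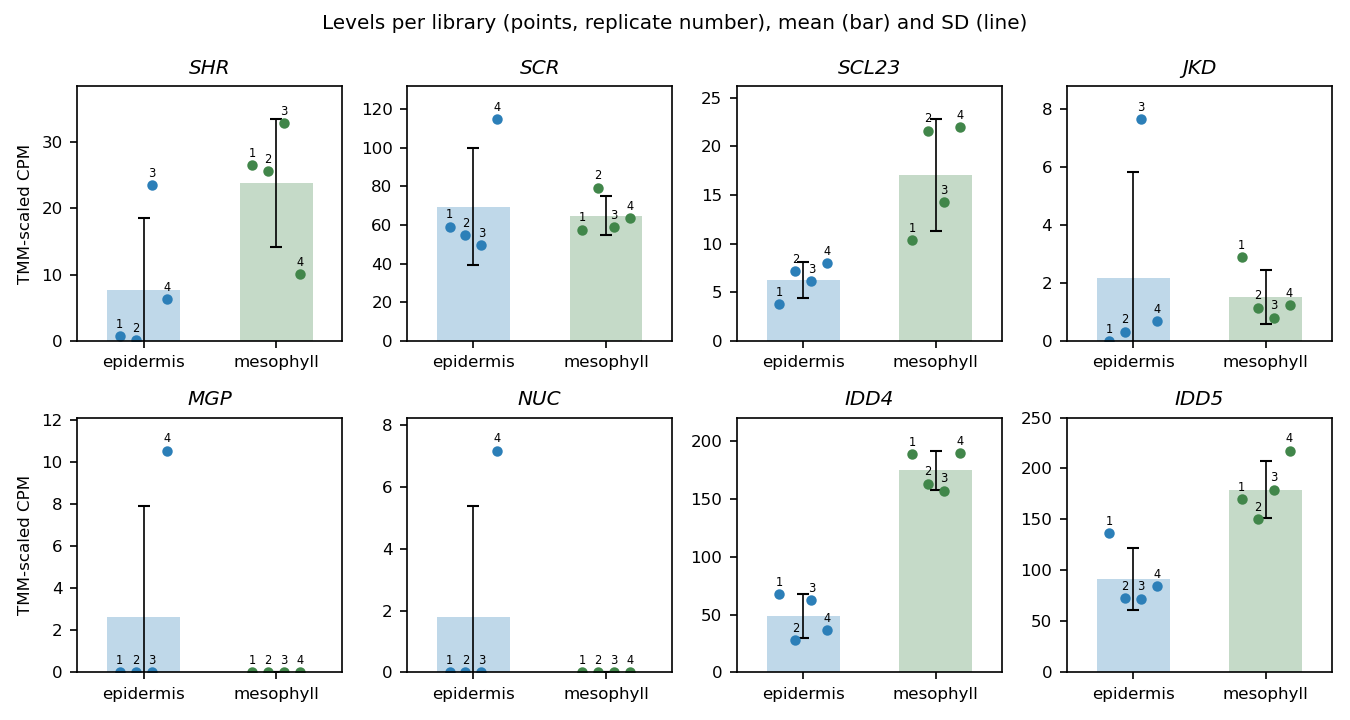
Level of each of the 8 genes in CPM scaled by TMM factors, on linear axes from 0 with a range of their own, epidermis left of mesophyll; points are libraries marked with their replicate number, bars the mean and lines the SD of 4 libraries. In IDD4, IDD5 and SCL23 every epidermis point lies below every mesophyll point, SHR spans 0.143 to 23.4 CPM in epidermis, and MGP and NUC have 1 point above 0, in epidermis library 4.

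IDD4 had the higher level in mesophyll by which the group was chosen. It had 67.6, 28.1, 62.5 and 36.7 CPM in epidermis libraries 1 to 4, against 188.9, 163.5, 157.3 and 189.9 CPM in mesophyll libraries 1 to 4. The lowest mesophyll library was above the highest epidermis library, and the means were 48.7 ± 19.3 CPM in epidermis and 174.9 ± 17.0 CPM in mesophyll (SD, n = 4 each). The fitted log2 fold change of epidermis over mesophyll was -1.93, and it lay between -2.13 and -1.65 under every alternative tried. These fits reuse the values that chose the group, so their closeness is no support for the difference. Without replicate 1 or without replicate 3, 0 members were called, IDD4 included. IDD4 is known in Arabidopsis as one of the IDD factors that can bind SHR and SCR and as a regulator of growth and immunity.

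IDD5, the neighbour of IDD4, had a smaller difference in the same direction that did not pass the threshold. It had 136.7, 73.0, 72.2 and 84.4 CPM in epidermis, against 169.9, 150.3, 179.2 and 217.4 CPM in mesophyll. No epidermis library reached the lowest mesophyll library. The log2 fold change was -1.01 (SE 0.22, 95% interval -1.53 to -0.49, adjusted p = 0.0879, n = 4 each). IDD5 was called by edgeR's likelihood ratio test (adjusted p = 0.00784), DESeq2 (0.00103) and limma-voom (0.0125), and without epidermis library 1 (0.0144, no replicate block), and over all alternatives its adjusted p ran between 0.00103 and 0.346. IDD5 is known in Arabidopsis leaves for regulating starch synthesis genes.

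Set per kilobase of the gene model, the order of IDD4 and IDD5 differed between the tissues. The ratio of the IDD4 level to the IDD5 level per kilobase was 0.567, 0.442, 0.992 and 0.498 in epidermis libraries 1 to 4. It was 1.28, 1.25, 1.01 and 1.0 in mesophyll libraries 1 to 4. IDD4 was thus the lower of the pair in every epidermis library and the higher in every mesophyll library, although epidermis library 3 and mesophyll libraries 3 and 4 lay close to 1, and the means were 0.625 ± 0.250 in epidermis and 1.13 ± 0.149 in mesophyll (SD, n = 4 each). The IDD4 values that chose the group enter this ratio, and no test was made of it. Per kilobase of coding sequence the order turned in epidermis library 3, where IDD4 had 40.3 and IDD5 39.9 CPM per kilobase.

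SCL23, a close relative of SCR that acts redundantly with it in the root and shoot endodermis, was lower in every epidermis library than in any mesophyll library but did not pass the test. It had 3.76, 7.18, 6.12 and 8.02 CPM in epidermis, against 10.3, 21.6, 14.3 and 22.0 CPM in mesophyll. The groups did not overlap, and the highest epidermis library (8.02 CPM) lay under the lowest mesophyll library (10.3 CPM). The log2 fold change was -1.43 (SE 0.54, 95% interval -2.68 to -0.18, adjusted p = 0.336, n = 4 each). Its adjusted p lay between 0.079 and 0.676 under the alternatives, and none of them called it.

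SCR, the GRAS partner that holds SHR in the nucleus of the root endodermis, had about the same level in both tissues and was the most highly counted of the GRAS members. It had 59.2, 54.7, 49.6 and 114.8 CPM in epidermis, against 57.6, 79.4, 58.9 and 63.5 CPM in mesophyll. Epidermis libraries 2 and 3 lay below the mesophyll range, library 1 lay inside it and library 4 lay above it. The log2 fold change was 0.02 (SE 0.27, 95% interval -0.60 to 0.65, adjusted p = 0.988, n = 4 each). Its sign turned under some scalings and without replicate 4 (-0.25).

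SHR, the mobile GRAS factor, had a wide spread among the epidermis libraries, and its difference did not pass the test. It had 0.676, 0.143, 23.4 and 6.33 CPM in epidermis, against 26.5, 25.6, 32.8 and 10.1 CPM in mesophyll. Epidermis libraries 1 and 2 held 23 and 4 pairs and stood far below all the others, whereas epidermis library 3 lay inside the mesophyll range. Each epidermis library was below the mesophyll library of the same number, and the log2 fold change was -3.21 (SE 1.44, 95% interval -6.51 to 0.09, adjusted p = 0.446). Without the replicate block it was -1.63 (adjusted p = 0.647), without replicates 1, 2, 3 and 4 in turn it was -2.03, -1.83, -4.68 and -4.51, and DESeq2 called it (-3.26, adjusted p = 0.00513).

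**Figure D2:**
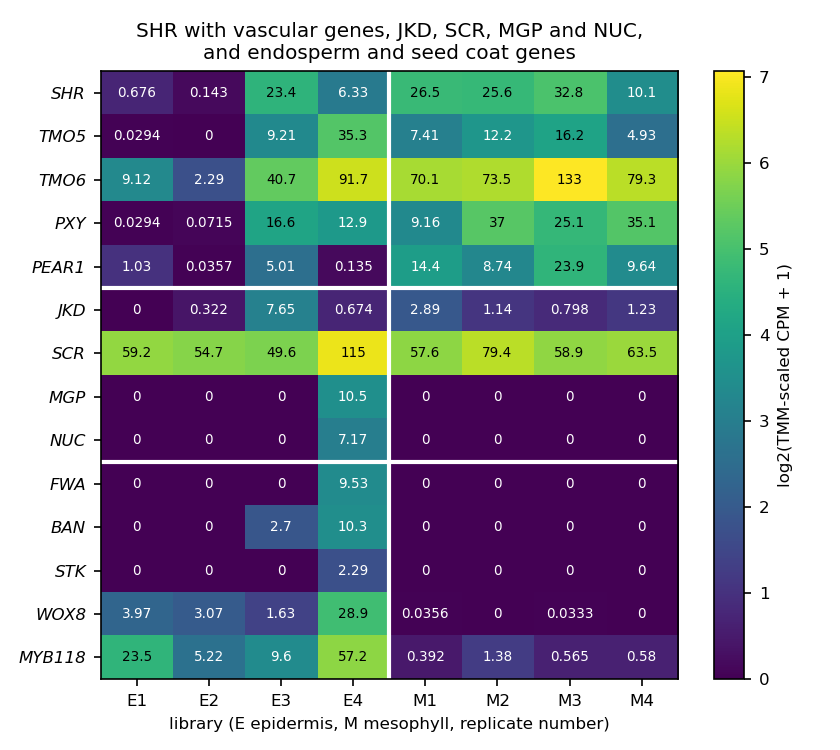
Heat map of levels per library (columns E1 to E4 epidermis, M1 to M4 mesophyll), coloured by log2 of TMM-scaled CPM plus 1 and printed as CPM, for SHR with vein and procambium genes (top rows), JKD, SCR, MGP and NUC (middle rows) and endosperm and seed coat genes (bottom rows). SHR, TMO5, TMO6 and PXY are lowest in E1 and E2, while MGP, NUC, FWA and STK are above 0 in E4 alone. The vein, endosperm and seed coat rows were chosen after their values were seen. Genes of the same lists that are not highest in E4, such as SUC5, AGL62 and TT10, are not shown.

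The low SHR libraries were also low in the summed level of genes of veins and procambium, the tissue in which SHR is transcribed in the root, but not in every such gene. The summed level of 14 vascular and procambial genes was 120.6, 153.9, 407.7 and 391.5 CPM in epidermis libraries 1 to 4, against 409.6, 402.3, 609.7 and 344.3 CPM in mesophyll libraries 1 to 4 (exact two-sided permutation test, p = 0.171). TMO6, a DOF factor of procambium, had 9.12, 2.29, 40.7 and 91.7 CPM in epidermis, against 70.1, 73.5, 133.3 and 79.4 CPM in mesophyll. PXY, a receptor kinase of the procambium, had 0.0294, 0.0715, 16.6 and 12.9 CPM in epidermis, against 9.16, 37.0, 25.1 and 35.1 CPM in mesophyll. Like SHR, TMO6 and PXY were lowest in epidermis libraries 1 and 2. PEAR1 was not, with 1.03, 0.0357, 5.01 and 0.135 CPM in epidermis, against 14.4, 8.74, 23.9 and 9.64 CPM in mesophyll. CNA (17.29, 66.74, 61.24 and 48.27 CPM in epidermis libraries 1 to 4) and SUC2 (54.96, 47.55, 38.37 and 44.57 CPM) were not lowest in both of these libraries either.

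Of 10 vascular genes tested, 9 had a negative log2 fold change (median -1.92), and 1 passed the test, with the opposite sign. That was SUC2, the sucrose transporter of phloem companion cells, with 46.4 ± 6.89 CPM in epidermis and 7.91 ± 4.22 CPM in mesophyll (SD, n = 4 each, log2 fold change 2.76, adjusted p = 0.0282). SUC2 missed the threshold without replicate 1 (adjusted p = 0.119), 2 (0.101) or 3 (0.0992). PEAR1 (annotated DOF2.4, -4.78, adjusted p = 0.134) and MONOPTEROS (MP, -1.52, adjusted p = 0.154), an auxin response factor, had the next smallest p-values, and VND7, a xylem factor, was at 0 in all libraries. The fit with no replicate block called 0 vascular genes lower in epidermis, limma-voom 1, the likelihood ratio test 4 and DESeq2 6, where these fits called 0.538%, 1.04%, 1.67% and 3.38% of all genes lower. The part of vein cells in the SHR values was not tested.

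JKD, which in the root keeps SHR in the ground tissue, was among the weakly counted members, with 0 to 235 pairs per library. It had 0, 0.322, 7.65 and 0.674 CPM in epidermis, against 2.89, 1.14, 0.798 and 1.23 CPM in mesophyll. Epidermis library 3 was above all mesophyll libraries and the remaining epidermis libraries were below them. The log2 fold change was -1.39 (SE 2.22, 95% interval -6.50 to 3.72, adjusted p = 0.887, n = 4 each), and without the replicate block it was 0.51.

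MGP and NUC, both direct targets of SHR and SCR in the root, were each counted in 1 library and at 0 in the other 7. MGP had 10.5 CPM (313 pairs) and NUC had 7.18 CPM (213 pairs) in epidermis library 4. A count of 0 allows a level of up to 0.0818 to 0.108 CPM (3 pairs) in these libraries, which covers counting error only, as pairs without molecular identifiers are not independent molecules. Neither gene reached the level needed for the test, and in the fit without that filter their adjusted p was 0.610 for MGP and 0.682 for NUC (edgeR).

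Epidermis library 4, which alone held MGP and NUC and had the highest SCR level, also had the highest level of several genes of the endosperm and seed coat, chosen here after their values were seen. FWA, an imprinted homeobox gene of the endosperm, had 9.53 CPM in epidermis library 4 and 0 in the other 7. WOX8, a homeobox gene of the zygote, suspensor and endosperm, had 3.97, 3.07, 1.63 and 28.9 CPM in epidermis libraries 1 to 4, against 0.0356 CPM or less in mesophyll libraries. BANYULS (BAN), a seed coat gene of proanthocyanidin synthesis, was at 2.70 CPM in epidermis library 3 and 10.3 CPM in epidermis library 4, and at 0 in the others. FWA, WOX8 and BAN were highest in the same library as MGP and NUC, but other genes of the same lists were not. SUC5 had 172.1, 201.7, 92.5 and 114.5 CPM and AGL62 2.15, 6.0, 3.16 and 0 CPM in epidermis libraries 1 to 4. Of the seed coat list, STK and MUM4 were also highest in epidermis library 4. TT10 (3.03 CPM in epidermis library 3) and MUM2 (9.71 CPM in mesophyll library 2) were at 0 in epidermis library 4. TT12 was highest in epidermis library 1, at 0.265 CPM.

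The summed level of 10 endosperm markers was 186.6 to 261.6 CPM in epidermis and 18.3 to 71.7 CPM in mesophyll (exact two-sided permutation test, p = 0.0286), with PHE1 at 0. SUC5, a sucrose transporter, averaged 145.2 CPM in epidermis and 44.7 CPM in mesophyll, beside mean sums of 236.9 and 49.8 CPM. Of 6 endosperm markers tested 1 (SUC5) was called higher in epidermis, 4 with no replicate block and 5 by DESeq2. These fits called 0.981%, 1.75% and 4.98% of all genes higher. The SUC5 call was lost without replicate 1, 2 or 3 (adjusted p = 0.107 to 0.131). In epidermis library 4 the endosperm sum was 261.6 CPM, beside 261.4 CPM in epidermis library 1. The sum of 7 seed coat markers was 9.51 to 37.9 CPM in epidermis, with its highest value in library 4, and 7.72 to 18.1 CPM in mesophyll (same exact test, p = 0.114), with TT16 at 0, and the 1 of them tested was not called. The number of genes with at least 100 pairs in 1 library and 0 in the other 7 was 27 for epidermis library 4, 9 to 13 for the other epidermis libraries and 4 to 6 for mesophyll libraries. The part of other seed tissues in the MGP, NUC and SCR values was not tested.

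**Figure D3:**
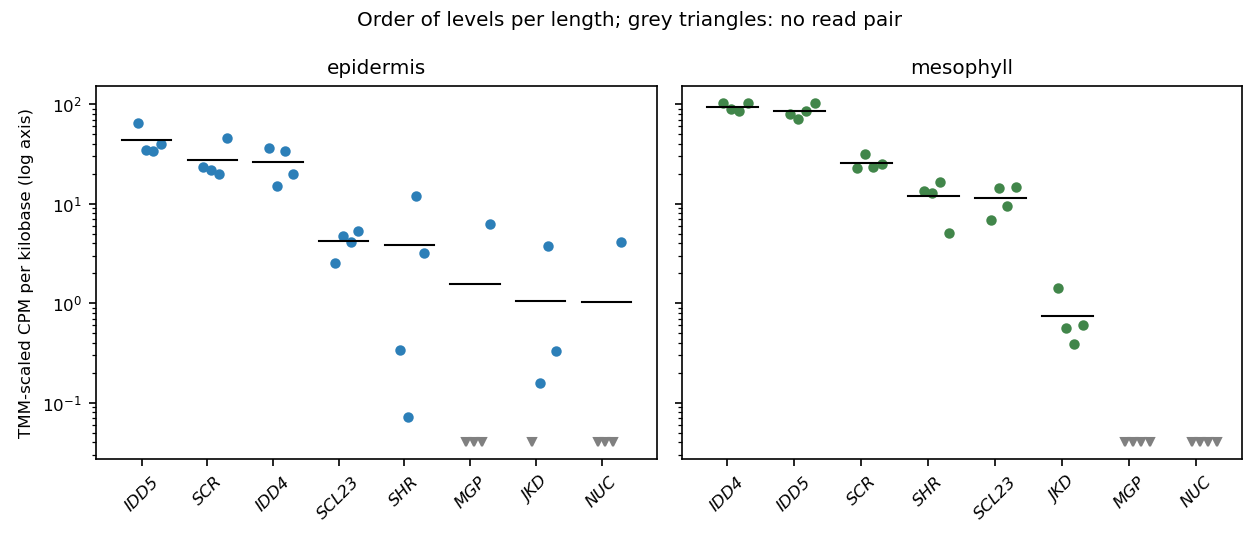
Level of each gene per kilobase of its gene model, in TMM-scaled CPM per kilobase on a log axis, in epidermis (left panel) and mesophyll (right panel), with genes ordered by their mean in that tissue; points are libraries, black lines the mean of 4, and grey triangles libraries with no pair. IDD5, SCR and IDD4 lead in epidermis at 43.3, 27.7 and 26.4, and IDD4 and IDD5 lead in mesophyll at 94.9 and 84.7, above SCR at 25.9.

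Levels of the members were also ordered per kilobase of gene model. Coverage along the gene models was not examined, for this order or for the ratio of IDD4 to IDD5. The study reported a slightly lower RNA integrity for epidermis than for mesophyll. In epidermis IDD5 came first with 43.3 ± 14.4 CPM per kilobase, then SCR with 27.7 ± 12.1 and IDD4 with 26.4 ± 10.5 (SD, n = 4 each). SCL23 (4.19 ± 1.23), SHR (3.87 ± 5.51), MGP (1.56, from 1 library), JKD (1.06 ± 1.79) and NUC (1.04, from 1 library) followed. The only neighbours in this order whose ranges did not overlap were IDD4 and SCL23, and without replicate 4 only 1 of the 8 genes held its place in the order, without replicate 2 it was 2, and without replicate 3 it was 4.

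In mesophyll IDD4 came first with 94.9 ± 9.19 CPM per kilobase and IDD5 next with 84.7 ± 13.3, with overlapping ranges. SCR (25.9 ± 4.0) lay below both and above SHR (12.0 ± 4.89) and SCL23 (11.4 ± 3.82), which overlapped each other. JKD (0.740 ± 0.456) lay below these, and MGP and NUC were at 0. With any single replicate left out, 6 to 8 of the 8 genes held their place in mesophyll.

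**Figure D4:**
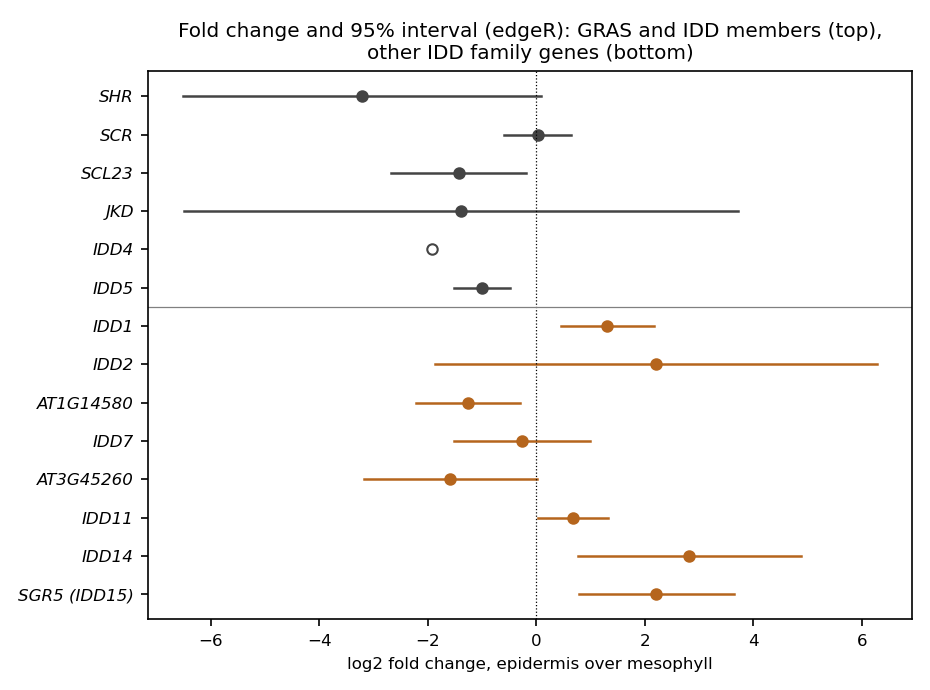
Log2 fold change of epidermis over mesophyll from edgeR (n = 4 each) for the 6 tested members (top) and the 8 tested other IDD genes (bottom), with points for estimates and lines for 95% intervals; values right of 0 are higher in epidermis, and IDD4, which chose the group, is an open point with no interval. The members lie between -3.21 and 0.02, and the other IDD genes lie on both sides of 0, with IDD14 at 2.82.

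The other IDD genes had differences in both directions, and none passed the test. Of 11 listed, 8 were tested and 0 were called in edgeR's quasi-likelihood test, with 5 at an unadjusted p under 0.05. The share of all genes at such a p was not counted, here or for the lists below. Called higher in epidermis were 1 with no replicate block, 3 by the likelihood ratio test, 3 by DESeq2 and 1 by limma-voom. These fits called 1.75%, 3.53%, 4.98% and 2.11% of all genes higher. DESeq2 also called AT1G14580 lower in epidermis, beside 3.38% of all genes. The median log2 fold change of the 8 was 0.99, with 5 positive and 3 negative values. IDD15 (annotated SGR5), known for the gravity response of shoots, had 18.2 ± 6.61 CPM in epidermis and 3.72 ± 0.340 CPM in mesophyll (log2 fold change 2.21, SE 0.62, adjusted p = 0.174). IDD1, known for seed maturation and germination, had 37.8 ± 10.8 CPM in epidermis and 15.2 ± 3.98 CPM in mesophyll (1.31, SE 0.37, adjusted p = 0.185).

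IDD14, which acts with IDD15 and IDD16 in auxin transport in aerial organs, had 16.7 ± 11.9 CPM in epidermis and 2.52 ± 1.85 CPM in mesophyll (log2 fold change 2.82, SE 0.89, adjusted p = 0.236). IDD15, IDD1 and IDD14 were each called higher in epidermis by the likelihood ratio test and DESeq2. All 3 had the sign opposite to IDD4. AT1G14580 (-1.26, adjusted p = 0.257), AT3G45260 (-1.58, adjusted p = 0.427) and IDD7 (-0.26, adjusted p = 0.918) had the sign of IDD4 in edgeR's quasi-likelihood test. Whether these genes differ from IDD4 was not tested.

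Known partners and targets of SHR and SCR showed no called difference. Of 8 listed, 7 were tested, and 0 were called and 0 had an unadjusted p under 0.05 in edgeR's quasi-likelihood test, with 0 called by the likelihood ratio test, DESeq2 and limma-voom. CYCD6;1, the D-type cyclin that SHR and SCR activate in the root for the division of ground tissue initials, averaged 7.20 ± 0.355 CPM in epidermis and 5.14 ± 5.35 CPM in mesophyll (log2 fold change 1.64, adjusted p = 0.740, n = 4 each). The smallest p-values belonged to BR6OX2, a brassinosteroid synthesis gene (-0.85, adjusted p = 0.561), and RBR1, the retinoblastoma homolog that binds SCR (0.50, adjusted p = 0.599).

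DELLA proteins bind IDD factors as coactivators, and SCL3 is a GRAS protein that acts against them. Of these 6 genes 0 were called by any tool, with 1 at an unadjusted p under 0.05 in edgeR's quasi-likelihood test. That was SCL3, with 11.9 ± 7.76 CPM in epidermis and 23.6 ± 6.48 CPM in mesophyll (log2 fold change -1.19, SE 0.48, adjusted p = 0.374, n = 4 each). RGL2 (-1.54, adjusted p = 0.557) and GAI (-0.61, adjusted p = 0.626) had the next smallest p-values.

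HD-ZIP III factors are limited in the root by microRNAs that SHR and SCR switch on. Of 5 genes 0 were called in edgeR's quasi-likelihood test, with 2 at an unadjusted p under 0.05. PHABULOSA (PHB), which marks the upper side of the cotyledon, had 172.4 ± 27.8 CPM in epidermis and 76.7 ± 22.2 CPM in mesophyll (log2 fold change 1.2, SE 0.24, adjusted p = 0.0671), and it was called by the likelihood ratio test, DESeq2, limma-voom and the fit without the replicate block. PHAVOLUTA (PHV), its closest relative, had 66.3 ± 16.2 CPM in epidermis and 35.3 ± 12.0 CPM in mesophyll (0.94, adjusted p = 0.313). REV had the third smallest p (-0.32, adjusted p = 0.774).

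Genes that mark the differentiated endodermis were nearly absent. CASP1, CASP4 and CASP5, scaffold proteins of the Casparian strip, were at 0 in all 8 libraries, and CASP2, MYB36 and AT1G61590 were each counted in 1 library at 0.9 CPM or less. GSO1, the receptor kinase that in the root closes the Casparian strip and in the embryo is needed for an intact cuticle, was the only one tested. It was called higher in epidermis, with 80.1 ± 31.2 CPM in epidermis and 25.0 ± 5.48 CPM in mesophyll (log2 fold change 1.63, SE 0.27, adjusted p = 0.0311, n = 4 each). The call was lost without replicate 2 (adjusted p = 0.158), 3 (0.168) or 4 (0.0761).

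Over the 8 libraries, the genes whose level was most like that of IDD4 were ESE3 (Pearson r = 0.99 of log2 CPM), AT5G06810, AT4G17810, AT1G55360 and XYL4 (r = 0.98 each), out of 15793 genes. ESE3, an ethylene response factor family gene, averaged 0.225 CPM in epidermis and 5.73 CPM in mesophyll. XYL4, a beta-xylosidase, averaged 223.9 CPM in epidermis and 482.0 CPM in mesophyll. These correlations carry the difference between the tissues and are a description with no test. Among the members IDD5 was the most like IDD4 (r = 0.90, rank 150), then SHR (0.72, rank 1020), SCL23 (0.69, rank 1167), JKD (0.32) and SCR (-0.16). After the mean of each tissue was subtracted, r was 0.53 for IDD5, 0.40 for SHR, 0.08 for JKD, -0.33 for SCR and -0.53 for SCL23.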

How the data were processed

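RNA-seq was made from laser-microdissected epidermis (4 libraries) and mesophyll (4 libraries) of embryo cotyledons. The authors removed ribosomal reads, aligned pairs with Bowtie2 to the representative gene models of TAIR10 and deposited, for each model, the raw number (count) of aligned pairs from unstranded libraries without molecular identifiers; TopHat2 is also named in the submitters' processing notes. Pairs with multiple hits (1.16 to 1.40% per library) had been removed. Of 33602 IDs, 32835 (97.7%) matched TAIR10.1.

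Genes that reached 1 CPM in 4 or more libraries were tested with edgeR 4.0.16 in R 4.3.3 (TMM factors, quasi-likelihood F test, tissue plus replicate number, Benjamini-Hochberg adjustment, threshold 0.05). The study fitted tissue and harvest date in edgeR with a likelihood ratio test; replicate number stood in for the date here, and that test was an alternative. Others used limma 3.58.1, DESeq2 1.42.0, other scalings and filters, and fits without single replicates or libraries. Libraries of 1 tissue differed far beyond counting noise (chi-square per degree of freedom 90.6 to 269.8). The fit was tested on simulated counts. The members and lists were chosen with earlier results of these data known. All members are named. From each other list the called genes or up to 3 with the smallest p are named, with markers at 0 and the 5 genes most like IDD4. Other genes of the vein and seed lists shown beside SHR, MGP and NUC were chosen after their values were seen. The other IDD genes with the sign of IDD4 were added in the same way. A listed marker is not reported here.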

Additional observations from a re-analysis of the deposited data

Results flagged for a closer look

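In groups of 4 libraries, 6 of 26 sets of values had a library far from the other 3 by Dixon's criterion. Chance meets it in about 1 in 20 groups of normally distributed values, and whether the CPM values are so distributed was not tested. Of the 6 sets, 4 were members in epidermis: SCR in library 4 (114.8 CPM), JKD in library 3 (7.65 CPM), MGP in library 4 (10.5 CPM) and NUC in library 4 (7.18 CPM). For MGP and NUC the other 3 values were 0, so that rate does not apply to them. The others were marker sums in mesophyll, the epidermis markers in library 3 (lowest, 278.0 CPM) and the seed coat markers in library 2 (highest, 18.1 CPM).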

How the results depend on the processing

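Against 171 genes called with the replicate block, 361 were called with no replicate block, 821 by the likelihood ratio test, 1320 by DESeq2, 497 by limma-voom and 257 with a filter of 10 CPM, and leaving out a replicate gave 54 to 150 and a single library, with no block, 162 to 264. Of the 8 members (6 tested), 1 was called in the fit reported, 1 with no replicate block, 2 by the likelihood ratio test and limma-voom, 3 by DESeq2 and 0 to 2 with replicates left out. Each of the named fits called IDD4, which chose the group, so nothing is read from these counts. Of all genes, 0.101%, 0.538%, 1.67%, 1.04% and 3.38% were called lower in epidermis in the named fits, in that order. The log2 fold change of SCR reversed with limma-voom (-0.085), upper quartile scaling (-0.022), library totals only (-0.0042) and without replicate 4 (-0.25 in both fits; range over replicates left out -0.25 to 0.22). That of JKD reversed with no replicate block (0.51), limma-voom (0.97) and, with no block, without epidermis replicate 1 (0.93), 2 (0.90) or 4 (0.81) or mesophyll replicate 3 (0.31); the causes were not tested. Of 8 members, 1 to 6 held their rank per length in epidermis with a replicate left out. JKD had no value with the filter of 10 CPM. Same-numbered libraries had residual correlations between -0.0102 and 0.0702, and 1 of 4 epidermis libraries correlated best with the mesophyll library of its own number; whether the number marks a harvest date is not given in the labels.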

Other observations

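IDD16, a gene of the same family that could not be tested, was above 0 in every epidermis library (0.18 to 4.82 CPM) and at 0 in every mesophyll library; it was singled out after its values were seen.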
